A study of Mus musculus with 6 samples.

Results

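The lysosome is the acid compartment in which cells break down proteins, lipids, glycans and material taken up from outside. The genes described here were chosen by name: 46 genes of lysosomal hydrolases, their luminal cofactors, membrane proteins of the organelle, subunits of its proton pump, and the transcription factors Tfeb, Tfe3 and Mitf. All 46 had a row among the 47593 gene rows of the deposited table, and all 46 passed the minimum mean for testing. They comprised 21 hydrolases, 3 luminal cofactors, 5 membrane proteins, 14 pump subunits and 3 regulators. RNA was sequenced from mouse femur marrow cells selected for c-Kit, the receptor for stem cell factor, and infected with a retrovirus (MSCVneo) that carries MLL-AF9, a leukaemia fusion of the histone methyltransferase MLL with AF9. The labels give 3 libraries as WT and 3 as E531R, a mutant form of AF9, and the title of the series ties the comparison to the loss of binding between AF9 and the corepressor BCoR. Infected cells of both groups were selected with G418 and passaged serially in cytokine-containing methylcellulose, so both groups carry the fusion and neither is unmodified marrow. The labels used here give no strain or age of the mice. Nor do they tie a replicate to its own culture or animal, so the p-values reflect only how these libraries scatter, and part of that scatter may be technical.

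Hydrolases reach the lysosome through the secretory pathway, many of them with a mannose-6-phosphate tag, and work best at the acid pH that the vacuolar ATPase maintains. That pump has a sector in the membrane, called V0, that passes protons, and a sector in the cytosol, called V1, that splits ATP. Tfeb, Tfe3 and Mitf are related basic helix-loop-helix factors that bind an E-box with the core CACGTG, found near the start of many lysosomal genes. Their activity is set largely by phosphorylation and by whether they are in the nucleus, which transcript levels do not show. Macrophages are rich in lysosomes, and neutrophil granules are related organelles.

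The E-box core is shown here because it is the sequence the 3 regulators share, and because the members that hold it differ in how they changed. RefSeq windows on GRCm38.p6, from 250 bases before to 50 bases after a start site, matched 40 of the 46 genes. The genes with no window were Galns, Asah1, Npc1, Atp6v1b2, Atp6v1c1 and Atp6v1h. CACGTG, which reads the same on both strands, was in a window of 12 of the 40 members (30%), against 12.04% of 9246 tested genes with a window and 8.81% of 18755 genes of the table with one. The longer TCACGTGA, which contains it, was in 5 of 40 (12.5%), against 2.25% of the tested genes, and that form with a G before and a C after was in 1 of 40 (2.5%, Cln3), against 0.876%. These shares describe letters in a window and not binding. The stretches below lie upstream of a RefSeq start site, which need not be the outermost start of the gene. In the gene positions used here, those of Cln3, Atp6v1a and Lgmn lie wholly inside the gene. The stretches of Mcoln1, Atp6v0b and Sgsh lie inside it in part. All run 5′ to 3′ along the strand of the gene and have each match in capitals.
Cln3 (chr7:126583332-126583405, minus strand): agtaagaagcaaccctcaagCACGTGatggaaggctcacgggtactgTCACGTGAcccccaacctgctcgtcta
Mcoln1 (chr8:3500428-3500499, plus strand): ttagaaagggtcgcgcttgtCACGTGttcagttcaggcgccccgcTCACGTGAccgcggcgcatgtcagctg
Lamp1 (chr8:13159080-13159160, plus strand): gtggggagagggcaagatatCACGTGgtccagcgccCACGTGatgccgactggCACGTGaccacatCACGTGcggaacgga
Atp6v1a (chr16:44139365-44139410, minus strand): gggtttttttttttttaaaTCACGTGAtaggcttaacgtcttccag
Atp6v0b (chr4:117887330-117887385, minus strand): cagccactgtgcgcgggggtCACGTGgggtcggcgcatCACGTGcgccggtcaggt
Gla (chrX:134601174-134601252, minus strand): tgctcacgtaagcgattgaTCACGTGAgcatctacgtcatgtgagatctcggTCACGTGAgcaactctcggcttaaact
Gaa (chr11:119267803-119267848, plus strand): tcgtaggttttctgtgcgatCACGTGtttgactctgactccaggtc
Sgsh (chr11:119355514-119355559, minus strand): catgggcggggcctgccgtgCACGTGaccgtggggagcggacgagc
Lgmn (chr12:102439116-102439161, minus strand): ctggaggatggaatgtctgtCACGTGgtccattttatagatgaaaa
Lamp1 had 4 matches within the 61 bases before its start and Gla 2 of the longer form, while Gaa and Sgsh had 1 each. Glb1 and Naglu also had 1 match each, and Atp6v0d1 a match across its start site. Of the members with a match, Cln3, Atp6v1a and Lgmn were higher in E531R, Gaa and Sgsh were lower, and the others did not pass the test described next. Among members higher in E531R, 3 of 12 with a window had CACGTG, and among the other members 9 of 28.

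Values are read counts that the authors divided by 1 size factor per library, called normalised read counts here. Each gene was tested with limma on log2(value + 1) over all genes with a mean of at least 10, adjusted by Benjamini-Hochberg across the 12991 genes tested, and was called where its adjusted p was under 0.05. Every log2 fold change sets E531R over WT, and every SD is over 3 libraries. The libraries held between 14161139 and 33459668 reads in genes. WT replicate 3 stood apart: it had the highest of the 3 WT values in 38 of the 46 members and the lowest in 6, against 50.7% and 38.5% of all tested genes. Its log2 difference from the mean of WT replicates 1 and 2 had a median of 0.31 over the members and ran from -0.70 (Mitf) to 1.02 (Lgmn). Over the 46 members that difference had a Spearman correlation of 0.60 with the GC content of the gene's transcripts, and 0.64 over 12569 tested genes. Those points share the same libraries and are a description. The part of GC content in the results was not tested beyond the removal of its trend, which added 11 members to the calls and took away 1, Atp6v1d.

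In E531R 7 of 14 pump subunits, 2 of 3 cofactors and 3 of 5 lipid hydrolases rose, and 3 of 14 hydrolases of sugar chains fell. In all 14 members were higher and 3 lower, shares of 30.4% and 6.52%, where 10.4% of all tested genes were higher, 9.53% lower and 19.9% either. The median log2 fold change was 0.19 over the members and 0.01 over all tested genes. The changes were small: 2 members changed by 2-fold or more, Lgmn and Psap, where 9.78% of all tested genes did. Of the 17 called members 14 changed by less than 1.5-fold. The 3 E531R values all lay above the 3 WT values in 20 members (43.5%) and all below in 9 (19.6%), against 21.2% and 22.8% of all tested genes (44% either). Without WT replicate 3, 27 members were higher and 5 lower (58.7% and 10.9%), against 24.3% and 23.1% of all tested genes, with a member median of 0.22. Those 27 and 5 included all of the 14 and 3. Leaving out E531R replicate 1, 2 or 3 gave 8, 9 and 8 higher and 1 lower each, and leaving out WT replicate 1 or 2 gave 8 and 10 higher and 2 lower each. Calls over all tested genes fell too, from 1349 higher and 1238 lower with every library kept. They were 819, 831 and 842 higher and 746, 752 and 789 lower without E531R replicate 1, 2 or 3. Without WT replicate 1 or 2 they were 1025 and 1128 higher and 901 and 1053 lower. The member median was 0.12 without E531R replicate 3 or WT replicate 1, its lowest values. The authors' deposited table called 15 members higher and 3 lower at an adjusted p under 0.05, against 7.91% and 7.5% of its genes. Its calls held all 14 and 3 of the limma calls, and Tfeb besides.

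**Figure D1:**
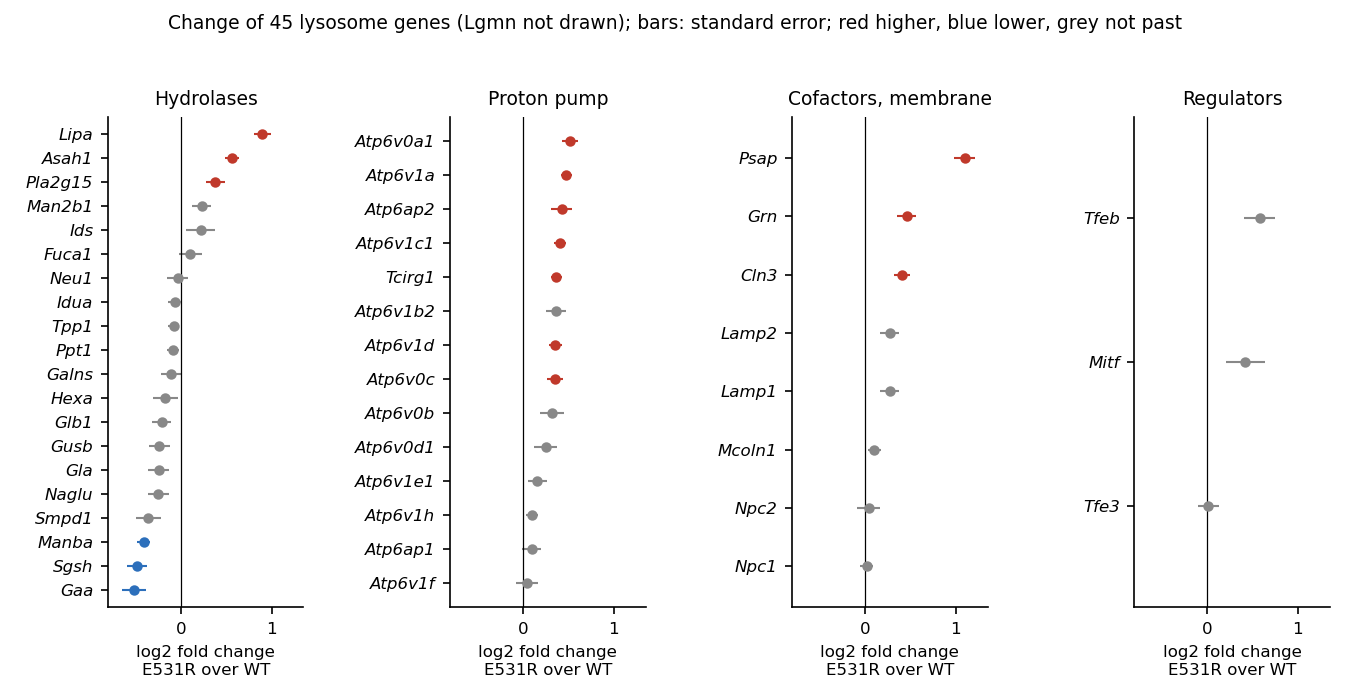
Log2 fold change of E531R over WT (x axis, with the standard error as a bar) of 45 of the 46 lysosome genes (rows), in 4 panels by role; red points passed the threshold toward higher values, blue toward lower, and grey did not pass. All 14 pump subunits lie to the right of 0, between 0.05 and 0.52, while hydrolases lie on both sides, from -0.51 (Gaa) to 0.90 (Lipa); Lgmn, at 3.40, is not drawn.

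The hydrolases changed in both directions. Of 21, 4 rose and 3 fell, shares of 19.0% and 14.3% against 10.4% and 9.53% of all tested genes, with a median log2 fold change of -0.09. Without WT replicate 3 these were 6 and 5, or 28.6% and 23.8% against 24.3% and 23.1%, with a median of -0.06. By substrate, of 5 enzymes acting on lipids or thioesters 3 rose and 0 fell, of 14 acting on sugar chains 0 rose and 3 fell, and of the 2 peptidases 1 rose. The lipid enzymes were thus 60% higher, against 10.4% of all tested genes. Of the sugar-chain enzymes, 16.7% of the 6 for glycosaminoglycans and 25% of the 8 others were lower, against 9.53%. Without WT replicate 3, 2 of the 14 sugar-chain enzymes, Man2b1 and Fuca1, were higher and 4 lower. Those 4 made up 33.3% of the 6 and 25% of the 8, near the 23.1% of all tested genes for the 8. The lipid enzymes were then 60% higher and 20% lower.

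Lipa, the acid lipase that frees cholesterol and fatty acids from lipoprotein lipids, lies on chromosome 19 (34492318 to 34527474, GRCm38). Its normalised read count was 1523, 1397 and 1750 in WT replicates 1 to 3, and 2823, 2829 and 3014 in E531R. Every E531R value was above every WT value, at a log2 fold change of 0.90 (limma SE 0.096, adjusted p = 0.000763), or 1.86-fold. Asah1, the acid ceramidase, had 2029, 1963 and 1793 in WT and 2705, 2883 and 2936 in E531R. The groups did not overlap, and Asah1 rose at a log2 fold change of 0.56 (limma SE 0.076, adjusted p = 0.00226). Pla2g15, a phospholipase A of the lysosome, had 2125, 1951 and 2525 in WT and 2901, 2818 and 2833 in E531R. It rose by the smaller log2 fold change of 0.38 (limma adjusted p = 0.041), a call kept when WT replicate 3 was left out and lost without any other library (adjusted p from 0.0923 to 0.155). With the replicate number as a block its adjusted p was 0.0563, and with upper-quartile rescaling 0.0841.

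The other enzymes of lipids did not pass. Smpd1, the acid sphingomyelinase, had 793, 794 and 1113 in WT and 698, 663 and 725 in E531R. All its E531R values were under the WT values (log2 fold change -0.35, limma adjusted p = 0.137), and it passed toward lower values without WT replicate 3 (-0.19). Ppt1, which removes fatty acids bound to proteins as thioesters, had overlapping groups and a log2 fold change of -0.09.

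Lgmn, the asparaginyl endopeptidase legumain, had the largest relative change among the members and the lowest WT level. It lies on chromosome 12 (102394084 to 102439813). Its normalised read count was 7.98, 4.59 and 13.4 in WT, from 26 reads in all, and 95.9, 81.7 and 104 in E531R, from 329 reads. The E531R mean was 10.9-fold the WT mean, at 3.40 in log2 on the scale with the pseudocount (SE 0.35, limma adjusted p = 0.000644). Even in E531R its level per kilobase of exons, 40.4, ranked 44 among the 46 members. Tpp1, the other peptidase, which cuts tripeptides from protein ends, had 3391, 3360 and 3486 in WT and 3274, 3119 and 3307 in E531R. All 3 of its E531R values lay below WT, without passing (log2 fold change -0.08, limma adjusted p = 0.428).

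Manba, the beta-mannosidase that removes the last mannose of a glycan core, fell. It had 3204, 2929 and 3225 in WT and 2316, 2339 and 2389 in E531R, 1.33-fold higher in WT (log2 fold change -0.41, SE 0.068; limma adjusted p = 0.00573). The groups were well apart, and its call held with each library left out (largest adjusted p 0.0445). Gaa, the acid alpha-glucosidase that degrades glycogen, had 5477, 5138 and 7281 in WT and 4229, 4013 and 4178 in E531R. It fell at a log2 fold change of -0.51 (limma SE 0.13, adjusted p = 0.0372), or -0.36 without WT replicate 3, its highest library. The Gaa call was lost without WT replicate 1 or without any E531R library (adjusted p from 0.0665 to 0.141). Sgsh, the sulfamidase of heparan sulfate, had 364, 390 and 466 in WT and 285, 292 and 292 in E531R. It fell with a log2 fold change of -0.48 (limma adjusted p = 0.0232), and that call was lost without WT replicate 2 or any E531R library (adjusted p from 0.0512 to 0.103). Card14 shares 21.6% of the exon bases of Sgsh on the opposite strand, but its own mean was 1.59 in WT and 0.881 in E531R.

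The remaining sugar-chain enzymes had smaller differences. Gusb, the beta-glucuronidase of glycosaminoglycans, had 12047, 11973 and 15371 in WT and 11192, 10547 and 11540 in E531R. All E531R values lay below WT, but the log2 fold change of -0.23 did not pass (limma adjusted p = 0.204). It passed without WT replicate 3 (-0.12). Hexa, the alpha subunit of beta-hexosaminidase, had 6107, 5917 and 8350 in WT and 6003, 5740 and 6167 in E531R, and here the groups overlapped (-0.17, limma adjusted p = 0.438, and -0.011 without WT replicate 3). Man2b1, the lysosomal alpha-mannosidase, went the other way, with 6250, 6158 and 7776 in WT and 7855, 7782 and 7912 in E531R. Its log2 fold change was 0.23 (limma adjusted p = 0.17), and 0.34 without WT replicate 3, where it passed. Naglu and Galns, which act on heparan and keratan sulfate, had -0.25 and -0.11, and Gla and Glb1, the alpha- and beta-galactosidases, -0.24 and -0.21. Idua, the iduronidase, Neu1, the sialidase, Ids, the iduronate sulfatase, and Fuca1, the fucosidase, had -0.06, -0.03, 0.22 and 0.11. None of these 8 passed limma's test as described above, while Naglu, Gla, Glb1 and Fuca1 passed with array weights and Fuca1 also with the trend of GC content and length removed. With WT replicate 3 left out, the values of Naglu, Galns, Gla and Glb1 were -0.13, 0.00065, -0.13 and -0.10, and those of Neu1 and Fuca1 were 0.091 and 0.24.

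**Figure D2:**
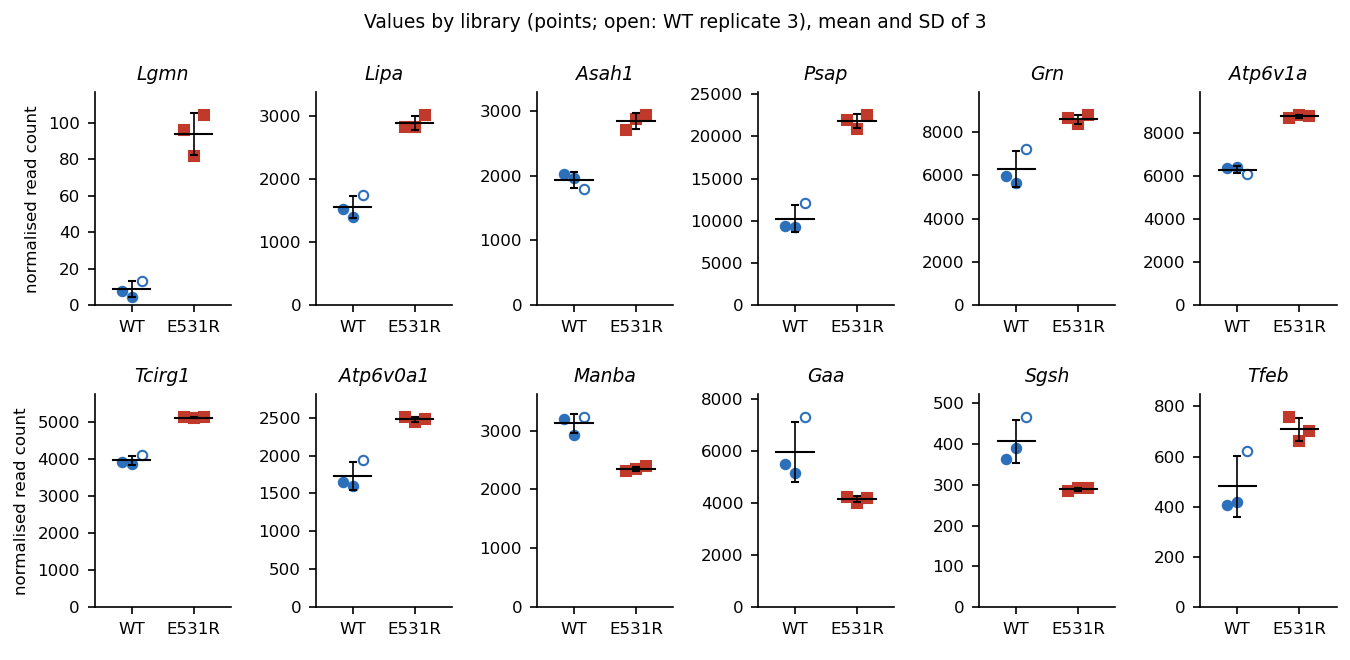
Normalised read count (y axis, from 0) of 12 lysosome genes in each of the 3 WT (blue circles, open for replicate 3) and 3 E531R libraries (red squares), with the mean as a line and the SD as a bar. Psap lies between 9297 and 12127 in WT and between 20921 and 22520 in E531R; Manba, Gaa and Sgsh are the genes with all E531R points below WT.

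The luminal cofactors were led by Psap, prosaposin, the precursor of the saposins that present sphingolipids to their hydrolases. It lies on chromosome 10 (60277627 to 60302597) and had 9358, 9297 and 12127 in WT and 21946, 20921 and 22520 in E531R. The mean rose 2.12-fold (log2 fold change 1.10, SE 0.12; limma adjusted p = 0.000755). Per kilobase of exons it was the second most abundant member in WT, at 3739 behind Lamp1 at 4118, and the most abundant in E531R, at 7943 against 4952 for Lamp1. Grn, progranulin, a secreted and lysosomal protein cut into granulins, had 5989, 5646 and 7228 in WT and 8636, 8374 and 8777 in E531R. It rose with a log2 fold change of 0.46 (limma adjusted p = 0.0199), and among fits with a library left out only the one without WT replicate 3 kept the call (adjusted p from 0.0559 to 0.091 in the others). Npc2, the soluble cholesterol carrier, had 4656, 4773 and 6341 in WT and 5254, 5243 and 5591 in E531R. Its groups overlapped (log2 fold change 0.04, limma adjusted p = 0.835), though it passed toward higher values without WT replicate 3 (0.19).

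Among the 5 membrane proteins 1 rose (20%) and 0 fell, against 10.4% and 9.53% of all tested genes. Without WT replicate 3, 3 were higher (60%) and 0 lower, against 24.3% and 23.1%. All 5 log2 fold changes were above 0 with a median of 0.27, except that Npc1 was below 0 with upper-quartile rescaling and without WT replicate 2. Cln3, a membrane protein whose loss causes a storage disease of neurons, had 714, 662 and 783 in WT and 989, 952 and 912 in E531R. Its groups did not overlap, and it rose at a log2 fold change of 0.40 (limma SE 0.087, adjusted p = 0.0176). The call was kept without WT replicate 3 and lost without any other library (adjusted p from 0.0515 to 0.0978). Apobr, which shares 7.65% of the exon bases of Cln3 on the opposite strand, rose from a mean of 761 to 1506, and whether reads were counted by strand is not stated in the labels. Lamp1 and Lamp2 are the heavily glycosylated proteins that coat the inner face of the membrane. Lamp1 had 10283, 10166 and 12594 in WT and 12923, 12828 and 13987 in E531R, and Lamp2 had 7040, 7054 and 5625 against 7650, 7871 and 8172. Neither overlapped between groups and neither passed (log2 fold change 0.27 for both; limma adjusted p = 0.115 and 0.119), while both passed without WT replicate 3 (0.37 and 0.16). WT replicate 3 was the highest WT library for Lamp1 and the lowest for Lamp2. Npc1, the membrane partner of Npc2 in cholesterol export, had 2318, 2242 and 2536 in WT and 2441, 2351 and 2396 in E531R, with a log2 fold change of 0.02. Mcoln1, the calcium channel of the lysosome, had 0.10 and did not pass.

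Of 14 proton pump subunits 7 rose and 0 fell (50% higher, against 10.4% of all tested genes), and all 14 had log2 fold changes above 0, with a median of 0.35, though Atp6v1h was below 0 with the trend of GC content and length removed and Atp6v1f without WT replicate 1 or 2. Without WT replicate 3 all 14 were higher (24.3% of all tested genes) and the median was 0.39. The calls came from both sectors: 3 of 5 in V0, 3 of 7 in V1 and 1 of 2 accessory subunits.

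In the V1 sector, Atp6v1a, the catalytic A subunit on chromosome 16 (44085402 to 44139705), had 6372, 6418 and 6094 in WT and 8684, 8825 and 8784 in E531R. It rose 1.39-fold (log2 fold change 0.48, SE 0.061; limma adjusted p = 0.00175), with no overlap and with WT replicate 3 close to the other WT libraries. Atp6v1c1, the C subunit that joins V1 to V0, had 2173, 2112 and 2074 in WT and 2727, 2738 and 2959 in E531R (log2 fold change 0.40; limma adjusted p = 0.0055). Atp6v1d, a subunit of the central rotor, had 1397, 1338 and 1412 in WT and 1742, 1682 and 1896 in E531R (log2 fold change 0.36; limma adjusted p = 0.0142). The Atp6v1d call was lost with the trend of GC content and length removed (0.14, limma adjusted p = 0.523). It was also lost without WT replicate 1 or E531R replicate 1 or 3 (adjusted p = 0.0508, 0.0699 and 0.0735). Atp6v1b2, the B subunit that pairs with A, had 3997, 4013 and 5121 in WT and 5598, 5453 and 5763 in E531R. Its groups did not overlap but it did not pass (log2 fold change 0.37, limma adjusted p = 0.058). It passed in DESeq2, run on the recovered reads (adjusted p = 0.0243) and with limma voom (0.0487). The stator and rotor subunits Atp6v1e1, Atp6v1f and the regulatory Atp6v1h had 0.16, 0.05 and 0.10.

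In the V0 sector, Atp6v0a1, one of the a subunits that form the proton path, had 1649, 1600 and 1938 in WT and 2505, 2439 and 2486 in E531R. It rose 1.43-fold (log2 fold change 0.52, SE 0.088; limma adjusted p = 0.00618). Tcirg1, the a3 subunit known from the acid-secreting membrane of osteoclasts, had 3911, 3871 and 4103 in WT and 5118, 5102 and 5113 in E531R (log2 fold change 0.37, SE 0.060; limma adjusted p = 0.00559). Both a subunits were apart between groups, and both calls held with each library left out. Atp6v0c, which forms most of the proton-carrying ring, had 1374, 1294 and 1585 in WT and 1860, 1777 and 1774 in E531R (log2 fold change 0.35; limma adjusted p = 0.0355). The Atp6v0c call was kept without WT replicate 3 and lost without any other library (adjusted p from 0.0894 to 0.154), with the replicate number as a block (0.0623) and with upper-quartile rescaling (0.0796). Atp6v0d1, which links the ring to the stalk, had 2802, 2646 and 3629 in WT and 3425, 3527 and 3761 in E531R, with overlapping groups (log2 fold change 0.25; limma adjusted p = 0.218). Atp6v0b, a ring subunit, had 0.32 with overlapping groups (limma adjusted p = 0.151). Both d1 and the Atp6v0b subunit passed without WT replicate 3 (0.39 and 0.47).

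Of the accessory subunits, Atp6ap2, also known as the prorenin receptor, had 4530, 4677 and 3485 in WT and 5602, 5456 and 5856 in E531R. It rose with a log2 fold change of 0.43 (limma adjusted p = 0.0491), the largest adjusted p of the 17 calls, and 0.23 with the trend of GC content and length removed. That call was lost without WT replicate 1 or any E531R library (adjusted p from 0.0753 to 0.17), with the replicate number as a block (0.073), with upper-quartile rescaling (0.0529), with no minimum mean (0.0549) and with a minimum of 50 (0.0533). Atp6ap1, an assembly subunit, had 3517, 3502 and 4462 in WT and 4048, 4055 and 4093 in E531R, with overlapping groups (log2 fold change 0.10).

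**Figure D3:**
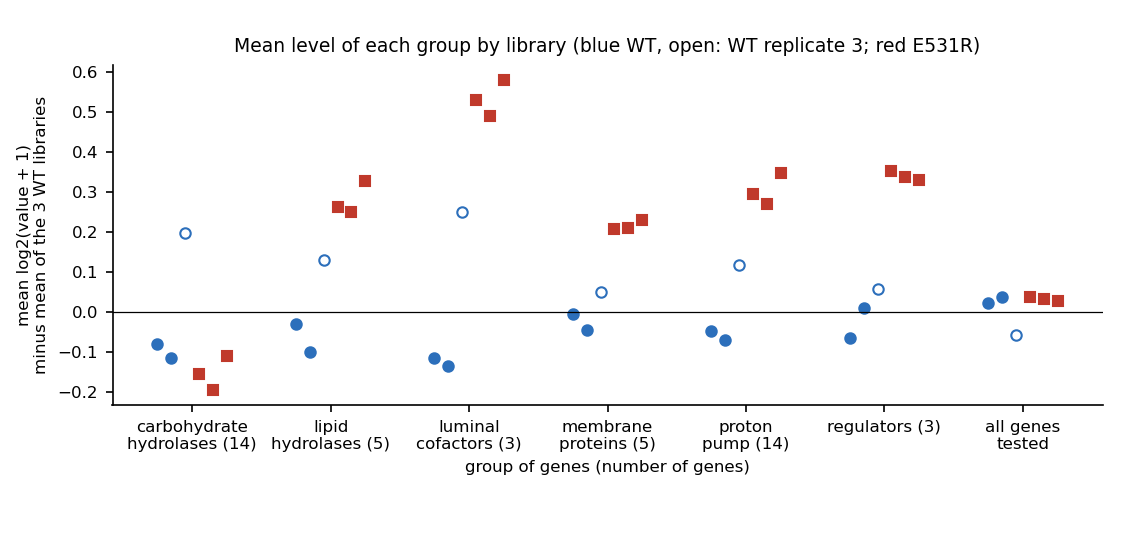
Mean of log2(value + 1) over the genes of each group, minus the mean of the 3 WT libraries (y axis), for each library (blue circles WT, open for replicate 3; red squares E531R). For the pump the E531R points lie between 0.27 and 0.35 and the WT points between -0.07 and 0.12; for the carbohydrate hydrolases the E531R points lie at or below -0.11, near WT replicates 1 and 2, and WT replicate 3 lies at 0.20.

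Pump and hydrolases were also compared within each library, where a scaling factor cancels. The mean log2 value of the 14 pump subunits minus that of the 14 sugar-chain hydrolases was 0.55, 0.56 and 0.44 in WT replicates 1 to 3, and 0.97, 0.98 and 0.98 in E531R. The difference was therefore 0.52 ± 0.068 in WT and 0.98 ± 0.0070 in E531R (SD over the 3 libraries of each group), 0.46 higher in E531R, with no overlap between groups. Against all hydrolases except Lgmn it was 0.51 ± 0.047 in WT and 0.85 ± 0.0045 in E531R. Both contrasts leave out Lgmn, the hydrolase that rose most. The first also leaves out Tpp1 and the 5 lipid hydrolases, a choice on which its size depends. Relative to its own WT mean, the pump mean lay at 0.29, 0.27 and 0.35 in E531R replicates 1 to 3. The mean of the lipid hydrolases lay close to that, at 0.26, 0.25 and 0.33. The mean of all 21 hydrolases with Lgmn lay at 0.12, 0.076 and 0.17, and without Lgmn at -0.046, -0.080 and 0.0023. The gap was thus smaller with Lgmn kept. These are means over chosen genes and carry no test.

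Shares among paralogues were taken for the subunits that have them. Per kilobase of exons, Tcirg1 made up 61.4% ± 1.68 of the a subunit transcripts in WT and 64.2% ± 0.389 in E531R (SD over the 3 libraries of each group), and Atp6v0a1 18.8% ± 0.855 and 21.8% ± 0.149. The rest was Atp6v0a2, at 19.8% ± 0.872 in WT and 13.9% ± 0.278 in E531R, and Atp6v0a4 had 0 reads in every library. The share of Atp6v0a2 was below every WT value in all 3 E531R libraries, although its own level did not pass (log2 fold change -0.20, limma adjusted p = 0.16). That level too was below every WT value in E531R, and it was called lower without WT replicate 3 (-0.12, limma adjusted p = 0.0305). Atp6v0d2, the d subunit of macrophages and osteoclasts, had 1, 2 and 1 reads in the WT libraries and 335, 237 and 287 in E531R. It rose with a log2 fold change of 6.64 on the scale with the pseudocount (limma adjusted p = 1.26e-05), from a share of 0.0364% ± 0.0215 of the d subunit transcripts to 4.37% ± 0.275. Its paralogue Atp6v0d1 thus still made up 95.6% in E531R. Atp6v1b1, Atp6v1c2 and Atp6v1e2, paralogues of other tissues, had at most 9 reads summed over either group.

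None of the 3 regulators passed limma's test as described above. Tfeb, on chromosome 17 (47737030 to 47792419), had 405, 418 and 621 in WT and 757, 664 and 704 in E531R. Every E531R value was above every WT value, by little for WT replicate 3, at a log2 fold change of 0.58 (limma SE 0.17, adjusted p = 0.0564). Tfeb passed without WT replicate 3 (0.78), in DESeq2, run on the recovered reads (adjusted p = 0.0168) and with the trend of GC content and length removed (0.69, limma adjusted p = 0.000567), and the authors' deposited table gave it an adjusted p of 0.0281. Tfe3 had 846, 831 and 1075 in WT and 948, 858 and 961 in E531R, with overlapping groups and a log2 fold change of 0.02 (limma adjusted p = 0.938). Mitf had 203, 234 and 134 in WT and 231, 282 and 235 in E531R, again overlapping (0.42, limma adjusted p = 0.227, and 0.19 without WT replicate 3). Per kilobase of exons the fourth gene of the family, Tfec, was far more abundant than these: it made up 84.5% ± 1.59 of the family's transcripts in WT and 82.3% ± 0.544 in E531R. Tfec itself did not pass, with a mean of 6548 ± 76.9 in WT against 6878 ± 198 (SD, n = 3 per group) and an adjusted p of 0.466 by limma.

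**Figure D4:**
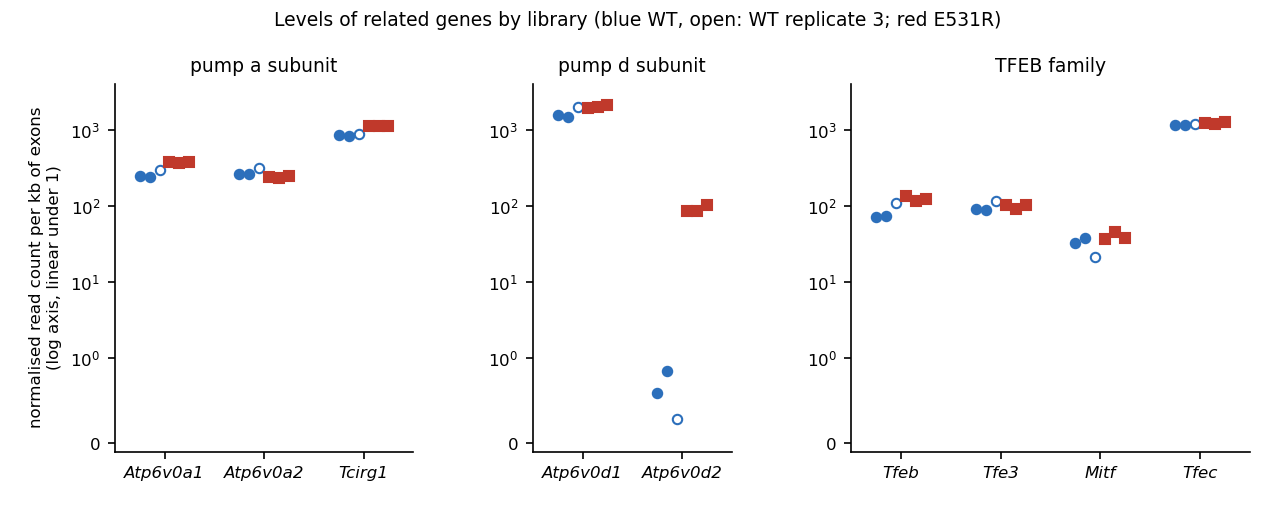
Normalised read count per kilobase of exons (log y axis, linear under 1) of the pump's a subunits, its d subunits and the TFEB family in each library (blue circles WT, open for WT replicate 3; red squares E531R). Atp6v0d2 goes from below 1 in WT to a mean of 91.2 in E531R, against 1992 for Atp6v0d1, and Tfec lies at a mean of 1170 in WT and 1230 in E531R, above Tfeb, Tfe3 and Mitf.

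By level, Lamp1, Psap, Hexa and Gusb led the members in WT, at 4118, 3739, 3403 and 2887 normalised reads per kilobase of exons. The lowest were Mitf, Ids and Lgmn, at 30.7, 17.6 and 3.72. The order changed most for Gaa, from rank 11 in WT to 18 in E531R, and Lipa, from 36 to 29. The members' spread within a group had a median coefficient of variation of 13.5% in WT, 2.25% in WT without replicate 3 and 3.76% in E531R.

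Other genes of the pathway came from lists of general knowledge. Of 23 further lysosomal enzymes and cofactors 3 rose and 1 fell, with a median log2 fold change of 0.04, and of 23 tested membrane proteins 6 rose and 1 fell, with a median of 0.15. The shares were 13.0% higher and 4.35% lower for the enzymes and 26.1% and 4.35% for the membrane proteins, against 10.4% and 9.53% of all tested genes. Without WT replicate 3 the counts were 10 and 5 (43.5% and 21.7%) and 11 and 6 (47.8% and 26.1%), against 24.3% and 23.1% of all tested genes. The enzymes that rose were Lyz2, the lysozyme of phagocytes (log2 fold change 2.04), Naaa, an amidase of fatty acid ethanolamides (1.36), and Arsb, a sulfatase of dermatan sulfate (1.05), and Acp5, the tartrate-resistant acid phosphatase, fell (-1.23). Of the membrane proteins Cd68, a scavenger receptor family member of macrophages, rose most, from 262, 219 and 268 in WT to 1244, 1181 and 1324 in E531R (log2 fold change 2.32; limma adjusted p = 1.74e-05). Slc11a1, a metal transporter of phagosomes, rose (2.09), as did Scarb2, a receptor for beta-glucocerebrosidase (0.83), Tpcn2, a cation channel (0.77), and Mfsd8 (0.47). Ctns, the cystine transporter, was the remaining member that rose (0.44; limma adjusted p = 0.0186). Cd63, a tetraspanin of late endosomes and granules, fell (-0.57; limma adjusted p = 0.0159). The Cd63, Mfsd8 and Ctns calls were each lost without some of the libraries (largest adjusted p 0.0785, 0.089 and 0.097), and all 3 held without WT replicate 3.

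Of 5 further pump subunits that could be tested 2 rose (40%) and 0 fell. They were Atp6v0d2 and Atp6v1g1 (0.44, limma adjusted p = 0.0309, kept only without WT replicate 3 among the fits with a library left out). Of 10 pump assembly factors 1 rose (10%) and 0 fell, against 10.4% and 9.53% of all tested genes. It was Rogdi (0.53, limma adjusted p = 0.0165, likewise). Without WT replicate 3, 3 of these pump subunits were higher and 1 lower (60% and 20%), and 6 assembly factors higher and 0 lower (60% and 0%). All tested genes had 24.3% and 23.1%. Of 17 tested genes around TFEB-type factors, namely Tfec and genes of the mTORC1 pathway and its inhibitors, 2 rose (11.8%) and 1 fell (5.88%). The shares of all tested genes were 10.4% and 9.53%. Without WT replicate 3 these counts were 4 and 1 (23.5% and 5.88%), against 24.3% and 23.1%. Fnip2, a folliculin partner, had a log2 fold change of 0.72, Rragc, a Rag GTPase, 0.35, and Rragb, another, -1.27. Among 25 autophagy genes 2 rose, Optn (0.93) and Wipi1 (0.40), and 2 fell, Calcoco1 (-0.64) and Atg12 (-0.47), with a median of 0.08. That is 8% in each direction, against 10.4% and 9.53% of all tested genes. The autophagy counts without WT replicate 3 were 13 and 5 (52% and 20%), against 24.3% and 23.1%. The Wipi1 and Rragc calls were lost without some of the libraries (largest adjusted p 0.0787 and 0.0519).

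Markers of cell types changed in both directions between the same libraries, and a link to the lysosome genes was not tested. Of all tested genes 10.4% were higher and 9.53% lower, and 24.3% and 23.1% without WT replicate 3. Of 11 tested macrophage and monocyte markers of 16 listed 10 rose (90.9%) and 0 fell, and 11 were higher without WT replicate 3. The summed normalised read count of the list was 21114 to 28572 in WT and 28740 to 31889 in E531R. Of 10 tested neutrophil markers of 11 listed all 10 rose (100%), also without WT replicate 3, with sums of 7464 to 9789 and 69077 to 76588. Most of the macrophage sum is Ly6c2, which did not pass, with means of 22715 and 22415. C1qa, C1qb and C1qc, markers of tissue macrophages, had means of at most 0.556. Of 8 osteoclast markers 2 of the 4 tested rose (50%, Mmp9 and Atp6v0d2) and Acp5 fell (25%), with the same counts without WT replicate 3. The list had sums of 1292 to 1620 in WT and 1669 to 1748 in E531R, and Calcr and Ocstamp were at 0 in every library. Of 4 tested mast cell and basophil markers of 11 listed 0 rose and 2 fell (50%), and 3 were lower without WT replicate 3 (75%). Their list had sums of 396 to 468 and 326 to 361, and Mcpt4, Cma1, Fcer1a and Prss34 were at 0. Among other cell types, 2 of 3 tested megakaryocyte markers of 6 rose (sums of 97.4 to 129 and 412 to 438), the 1 tested eosinophil marker of 6 rose (49.4 to 66.1 and 133 to 144), and 0 of 2 tested red cell markers of 7 passed (4014 to 7823 and 7770 to 8203). Nkg7, the 1 tested lymphoid marker of 10, fell (619 to 778 and 269 to 293), as did Pdgfrb and Pecam1, 2 of 3 tested stromal and endothelial markers of 9 (5562 to 6460 and 1440 to 1555). Most of that last sum is Pecam1, with means of 5850 and 1460. Col1a1, the other one tested, did not pass (means of 6.22 and 17.4), though it was higher without WT replicate 3. Cdh5 and Kdr had means of at most 0.788. Most of the osteoclast sum is Nfatc1 (means of 1304 and 1281) and most of the red cell sum is Tfrc (6374 and 7973). Neither of them passed. Hba-a1 and Hbb-bs of red cells and Ms4a1, Cd3e, Cd4, Cd8a, Gzma and Ncr1 of lymphocytes were at 0 in every library. Of 8 progenitor and early myeloid genes, all tested, 3 rose (37.5%) and 1 fell (12.5%). Without WT replicate 3, 4 of them were higher and 3 lower (50% and 37.5%). Cd34 (log2 fold change 1.01), Prtn3 (0.67) and Mpo (0.56) rose and Flt3 fell (-2.65), and the Prtn3 call was lost without some of the libraries (largest limma adjusted p 0.0658). Kit itself, with 3587 ± 100 in WT against 3335 ± 4.07 (SD, n = 3 per group), did not pass, though it was lower without WT replicate 3. The part of a changed mix of cells in the results was not tested, and in bulk RNA more cells of a type and more RNA per cell cannot be told apart.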

How the data were processed

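The deposited table holds, for 6 mouse libraries, read counts per gene that the authors divided by 1 size factor per library (unit signal). It also holds the authors' DESeq2 log2 fold change, score (Wald statistic) and p-value columns, per the file headers. FastQC, cutadapt, HISAT2, SAMtools, featureCounts, DESeq2 and GRCm38 are named in the submitters' processing notes. Their versions, the annotation and the strand setting: not given in the sources used here. Signs of the authors' fold changes, deposited as WT relative to E531R, were reversed.

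Whole reads were recovered from the step size of each column, with 100% of values whole within 0.001 reads. The main test was limma 3.58.1 (R 4.3.3), trended on mean level, of log2(value + 1), with a minimum mean of 10, no covariate, two-sided, adjusted over 12991 genes. The test was also run on simulated counts with the mean levels and depths of these libraries (12832 genes, 200 of them changed). It found 38.8% of the 1.5-fold changes and 72% of the 2-fold ones and made 5 false calls. The simulation gave all libraries the same spread around the mean and had no library that stood apart as WT replicate 3 did. Its shares therefore do not measure how the test performs on these data. Most member changes were under 1.5-fold, so a member that did not pass is not shown to be unchanged. Size factors cannot show a shift shared by all genes, and without molecular identifiers a read is not a separate molecule.

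Members and lists were chosen with earlier results of these data known. Named with values in every library were the regulators, up to 8 members per role past the threshold by adjusted p, and up to 3 more by mean. For the other pathway lists up to 5 called genes were named, and the remaining called gene of its list, Ctns, was added. The other members and markers were named after their values were seen. Alternatives were pseudocounts of 0.5 and 10, no minimum or a minimum mean of 50, rescaling by TMM or the upper quartile, array weights, a replicate block, leaving out each library and, from the recovered reads, limma voom, DESeq2 1.42.0 and the quasi-likelihood test of edgeR 4.0.16. Removal of a GC and length trend was added after seeing the data. The count test of edgeR gave 1393 higher and 1251 lower genes. Positions, exon lengths and GC content are from GENCODE M21 (GRCm38), matched by symbol for 45322 rows.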

Additional observations from a re-analysis of the deposited data

How the results depend on the processing

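No called lysosome gene changed sign under the alternatives run, nor did the median of the lysosome genes. Of the genes that did not pass, with the GC and length trend removed Galns had a log2 fold change of 0.018, Idua 0.021, Ids -0.014, Neu1 0.082 and Atp6v1h -0.11, each with the sign opposite to its reported value. With array weights Neu1 had 0.082, and with upper-quartile rescaling Npc1 had -0.019 and Tfe3 -0.024. Leaving out 1 library each gave values on both sides of 0 for Galns (-0.19 to 0.0007), Neu1 (-0.11 to 0.091), Npc2 (-0.037 to 0.19), Npc1 (-0.017 to 0.072), Atp6v1f (-0.024 to 0.18) and Tfe3 (-0.050 to 0.14). None of the values with the turned sign passed the test. The cause was not tested. The counts of lysosome genes, 14 higher and 3 lower, were 11 to 16 and 3 under both pseudocounts, both minimum means, both rescalings, edgeR, DESeq2, voom and the replicate block. With the GC and length trend removed, an alternative chosen after seeing the data, 22 lysosome genes were higher and 5 lower, of 2388 and 2049 genes in all, and with array weights 27 and 8, of 3432 and 3266. Removing that trend added Gusb (-0.18), Smpd1 (-0.23), Man2b1 (0.28), Fuca1 (0.21), Lamp1 (0.37), Atp6v0b (0.42), Atp6v0d1 (0.31), Atp6v1b2 (0.38), Atp6v1e1 (0.23), Atp6ap1 (0.20) and Tfeb (0.69) to the calls and took away Atp6v1d (0.14). Leaving out 1 library each gave 8 to 27 higher and 1 to 5 lower lysosome genes, and 819 to 3159 higher and 746 to 2999 lower genes in all. The highest of each range is without WT replicate 3, and the lowest for all genes without E531R replicate 1. The median log2 fold change of the lysosome genes stayed between 0.12 and 0.22, less than the spread between replicates from its value of 0.19. Whether replicate numbers pair the libraries cannot be settled from 3 libraries per group. Deviations of same-numbered libraries correlated at 0.0017, 0.19 and 0.24, with 0.19 and 0.24 the highest of any WT and E531R pair. Not every library correlated best with its own number. With the replicate block 11 lysosome genes were higher and 3 lower, with Pla2g15, Atp6v0c and Atp6ap2 no longer past, and 1179 genes higher and 1062 lower in all. Depth limits Lgmn and Atp6v0d2 in WT, with 26 and 4 reads over 3 libraries, so that their fold changes rest on few counts.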
